A study of Mus musculus with 21 samples.

Results

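The immunoproteasome and MHC class I loading genes are 10 genes whose products cut cytosolic proteins into peptides and place those peptides on MHC class I molecules. They were taken by gene symbol in the platform annotation: Psmb8, Psmb9, Psmb10, Psme1, Psme2, Tap1, Tap2, Tapbp, B2m and Erap1. Of these 10 genes, 9 had a probe set of their own among 12393 genes measured. Psme2 was represented only by a probe set annotated with 2 symbols, Psme2b and Psme2, so its values are given under that probe set and it enters no count of genes.

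RNA came from whole homogenized left lungs of female BALB/c mice, 8 weeks old, that had received 1 dose by intratracheal aspiration. The groups were Metarhizium anisopliae crude antigen (MACA, an extract of an insect-pathogenic fungus) at 20 µg in 50 µl of Hank's Balanced Salt Solution (HBSS), BSA (bovine serum albumin) in the same amount and volume, and 50 µl of HBSS alone, with lungs taken after 3 h or 12 h. There were 4 arrays for MACA 3 h, 3 for BSA 3 h, 3 for HBSS 3 h, 3 for MACA 12 h, 4 for BSA 12 h and 4 for HBSS 12 h, 21 in all. The labels describe agents of high or low allergenicity, and they call each array a biological replicate without saying whether an array is 1 mouse. The p-values therefore measure the spread between these samples.

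The standard proteasome carries 3 catalytic subunits, encoded by Psmb5, Psmb6 and Psmb7. Cells exposed to interferons build a different particle, the immunoproteasome, in which Psmb8 replaces Psmb5, Psmb9 replaces Psmb6 and Psmb10 replaces Psmb7, and leukocytes carry it constitutively. Psme1 and Psme2 encode the subunits of the PA28 activator ring, Tap1 and Tap2 the transporter that moves peptides into the endoplasmic reticulum, and Tapbp (tapasin) the bridge between that transporter and an empty class I molecule. Erap1 trims peptides inside the endoplasmic reticulum, and B2m encodes beta-2-microglobulin, the light chain of the class I molecule.

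Several of these genes share a place in the genome. In the reference gene table (GRCm38.p6), Psmb9, Tap1, Psmb8 and Tap2 are neighbours in that order on chromosome 17, inside the class II region of the MHC, and Tapbp lies elsewhere on the same chromosome. Psme1 and Psme2 lie on chromosome 14 with the gene Emc9 between them. Psmb9 and Tap1 are read in opposite directions from starts 226 bases apart. The interval between them is shown because a single stretch lies upstream of both genes (RefSeq, GRCm38.p6, chr17:34187331-34187555, plus strand, the direction in which Tap1 is read). It is printed with the 250 bases before the start of Psmb8 (chr17:34197945-34198194, plus strand) and of B2m (chr2:122147437-122147686, plus strand), the only windows of the 9 available that held a motif searched for. Capitals mark the matches.
Psmb9 and Tap1 interval: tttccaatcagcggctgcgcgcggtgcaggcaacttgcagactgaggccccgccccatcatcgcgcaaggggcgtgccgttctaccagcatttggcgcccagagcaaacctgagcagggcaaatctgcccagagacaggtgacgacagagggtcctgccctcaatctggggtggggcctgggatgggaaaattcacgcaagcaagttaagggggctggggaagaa
Psmb8 upstream: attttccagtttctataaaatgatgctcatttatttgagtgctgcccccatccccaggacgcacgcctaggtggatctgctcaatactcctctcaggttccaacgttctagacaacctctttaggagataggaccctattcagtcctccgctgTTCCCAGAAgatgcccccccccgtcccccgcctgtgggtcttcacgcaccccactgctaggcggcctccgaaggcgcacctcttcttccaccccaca
B2m upstream: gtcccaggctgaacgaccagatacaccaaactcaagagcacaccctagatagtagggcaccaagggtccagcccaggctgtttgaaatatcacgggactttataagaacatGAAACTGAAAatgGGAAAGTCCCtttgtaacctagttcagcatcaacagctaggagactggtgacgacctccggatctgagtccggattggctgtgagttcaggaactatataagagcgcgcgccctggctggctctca
The motifs were the core of the interferon-stimulated response element (ISRE), which is GAAA, any 2 bases and GAAA, the gamma-activated site (GAS), TTCNNNGAA, and the NF-kB consensus, on both strands. The capitals in the Psmb8 window are a GAS, TTCCCAGAA, at 97 to 89 bases before the start. Those in the B2m window are an ISRE core, GAAACTGAAA, at 139 to 130 bases and, with 3 bases between, a minus-strand NF-kB match read on the plus strand as GGAAAGTCCC. Among 32851 windows of 250 bases, 2.98% held the ISRE core, 7.02% the GAS and 3.9% the NF-kB consensus, and 1 of the 9 windows held each. No match in a window says only that these letters are not there, and no window was given for Tap2.

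Values are array intensities after the arrays were brought to one scale, and folds are on the log2(intensity + 16) scale. The noise level was an intensity of 40.9, and the probe set used for each of the 9 genes was above it on all 21 arrays. A difference was called where limma's Benjamini-Hochberg adjusted p over all 12393 genes was under 0.05. Some counts of the 9 genes come from another fit or from an unadjusted p under 0.05. Unless stated, these stand without the share of all genes by the same rule. On their own such counts cannot tell a change in the 9 genes from a change in all genes. Intensities are compared within a probe set, never between genes. In bulk lung, fewer cells of a type and less RNA per cell cannot be told apart.

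The arrays also fell into a pair of technical sets that the labels do not name. The ratio of 2 probe sets of 1 hybridization control was 1.62 to 1.91 on 13 arrays (high set) and 0.939 to 1.22 on 8 arrays (low set). All MACA 12 h arrays were in the high set and all 4 HBSS 12 h arrays in the low set, along with MACA 3 h replicates 3 and 4 and BSA 12 h replicates 3 and 4. MACA and HBSS at 12 h therefore have no comparison within a set, and neither do HBSS lungs at 12 h and 3 h. For these comparisons, a fit that adds the set to the model is the only one that bears on the set. In that fit 14.8% of all genes differed between the sets, and of the 9 genes Tapbp did (0.38 higher in the high set on the log2 scale, limma adjusted p = 0.0165). BSA 12 h replicate 1 stood apart from its group on the first principal component, at -8.47 against 11.2 to 16.2 for the other 3 arrays, while the MACA arrays lay between -28.7 and -18.8.

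At 12 h most of these genes stood higher in MACA lungs than in HBSS lungs. Tap1, Tapbp, Psme1, Psmb10, Psmb8 and Psmb9 rose, by 1.35- to 2.26-fold, and Tap2, Erap1 and B2m did not pass the test. The 6 of 9 genes that rose compare with 10.2% of all genes called higher in the same comparison (1258 higher and 1251 lower, but 162 and 5412 on unscaled arrays). The median log2 fold of the 9 genes was 0.60, against -0.00 over all genes. On unscaled arrays these medians were -0.07 and -0.57, and 1 of the 9 genes passed, B2m, which was lower. In 7 of 9 genes every MACA 12 h array exceeded every HBSS 12 h array, as in 15% of all genes. MACA 12 h had the highest group mean of the 6 groups for all 9 genes.

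**Figure D1:**
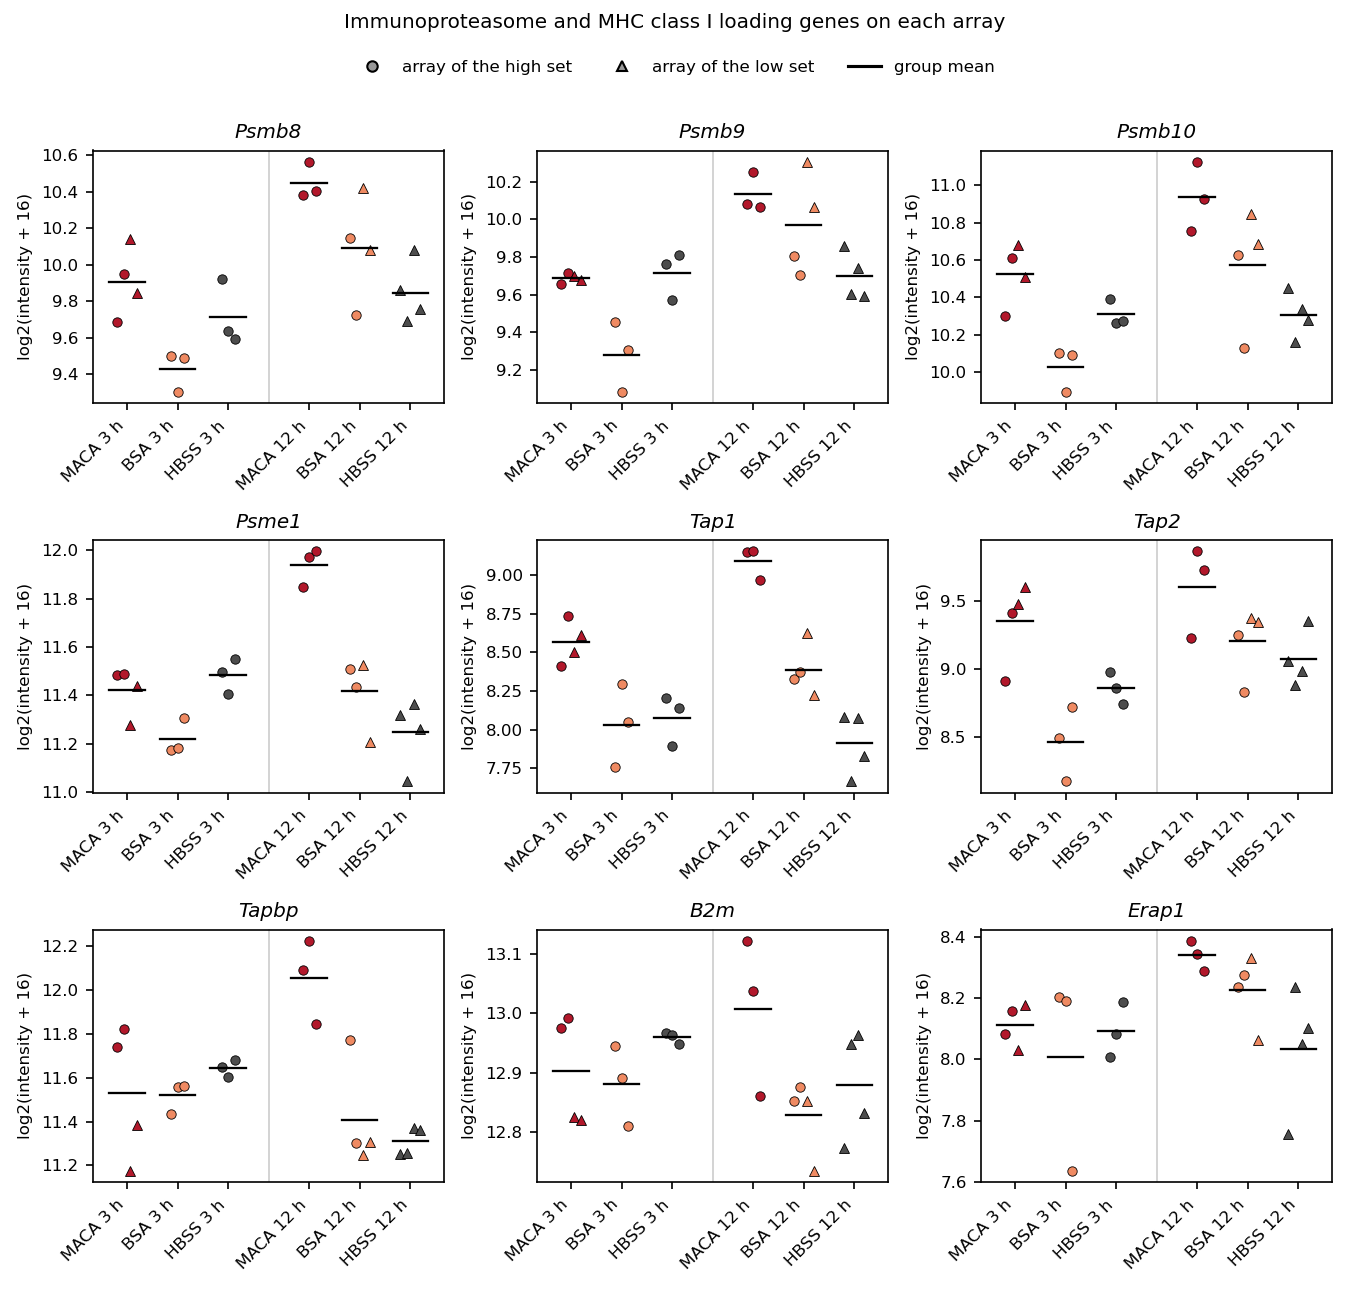
Log2(intensity + 16) of the probe set used for each of the 9 genes on each of the 21 arrays, by group, with circles for arrays of the high technical set, triangles for the low set and a line for the group mean; the panels have their own scales. MACA 12 h has the highest mean in each panel, the Tap1 points of that group (intensities of 484 to 553) lie above all other arrays, and B2m overlaps between groups.

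Among the catalytic subunits, Psmb8 (LMP7, the chymotrypsin-like subunit) had intensities of 1319, 1498 and 1341 in MACA 12 h lungs, against 913, 812, 1069 and 848 in HBSS 12 h lungs. Every MACA array lay above every HBSS array, with a log2 fold of 0.60 ± 0.14 (SE, limma adjusted p = 0.00744). Psmb10 (MECL-1, the trypsin-like subunit) had 1709, 2218 and 1930.2 in MACA 12 h lungs, against 1380.3, 1127, 1279 and 1226 in HBSS 12 h lungs. These groups did not overlap either, and the log2 fold was 0.63 ± 0.14 (SE, limma adjusted p = 0.00481). Psmb9 (LMP2) had 1069, 1202 and 1057 in MACA 12 h lungs, against 912, 761, 841 and 756 in HBSS 12 h lungs. It had the smallest rise of the 6 genes, with a log2 fold of 0.43 ± 0.12 (SE, limma adjusted p = 0.0186). The call of Psmb9 was lost without MACA 12 h replicate 2, HBSS 12 h replicate 2 or HBSS 12 h replicate 4, with an adjusted p of up to 0.0963 when 1 array was left out.

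The standard subunits that these 3 replace did not pass the test. Psmb5, which Psmb8 replaces, had 1711, 1935 and 1937 in MACA 12 h lungs, against 1724, 2190.4, 1823 and 1726 in HBSS 12 h lungs. Psmb6 had 2083, 2502 and 2187 in MACA 12 h lungs, against 2124, 2377, 2051 and 2379 in HBSS 12 h lungs. Psmb7 had 2174, 2243 and 2282 in MACA 12 h lungs, against 2400.5, 2373, 2333 and 2195 in HBSS 12 h lungs. The groups overlapped for all 3, with log2 folds of 0.00, 0.01 and -0.06. These MACA arrays were all in the high technical set and these HBSS arrays all in the low set. In MACA 3 h lungs the low-set replicates 3 and 4 exceeded replicates 1 and 2 for all 3 genes. For Psmb5 they had 1865 and 1844, against 1547 and 1642. The part of the set in the standard subunits, and in the pair differences that follow, was not tested. Within each array, the log2 difference between an immunosubunit and its counterpart cancels any factor common to both. This difference was higher in MACA 12 h than in HBSS 12 h lungs by 0.60 for Psmb8 and Psmb5, by 0.42 for Psmb9 and Psmb6 and by 0.69 for Psmb10 and Psmb7, and the arrays of the groups did not overlap in any of the 3 pairs. With 35 splits of 3 and 4 arrays an exact 2-sided permutation test cannot go below p = 0.0286. The exact permutation test gave p = 0.0571, 0.0571 and 0.0286 for these 3 pairs in that order, each 0.137 after adjustment over 12 such tests. At 3 h the same differences between MACA and HBSS lungs were -0.06, -0.28 and -0.06, and the arrays overlapped (exact permutation p = 0.771, 0.171 and 0.571).

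**Figure D2:**
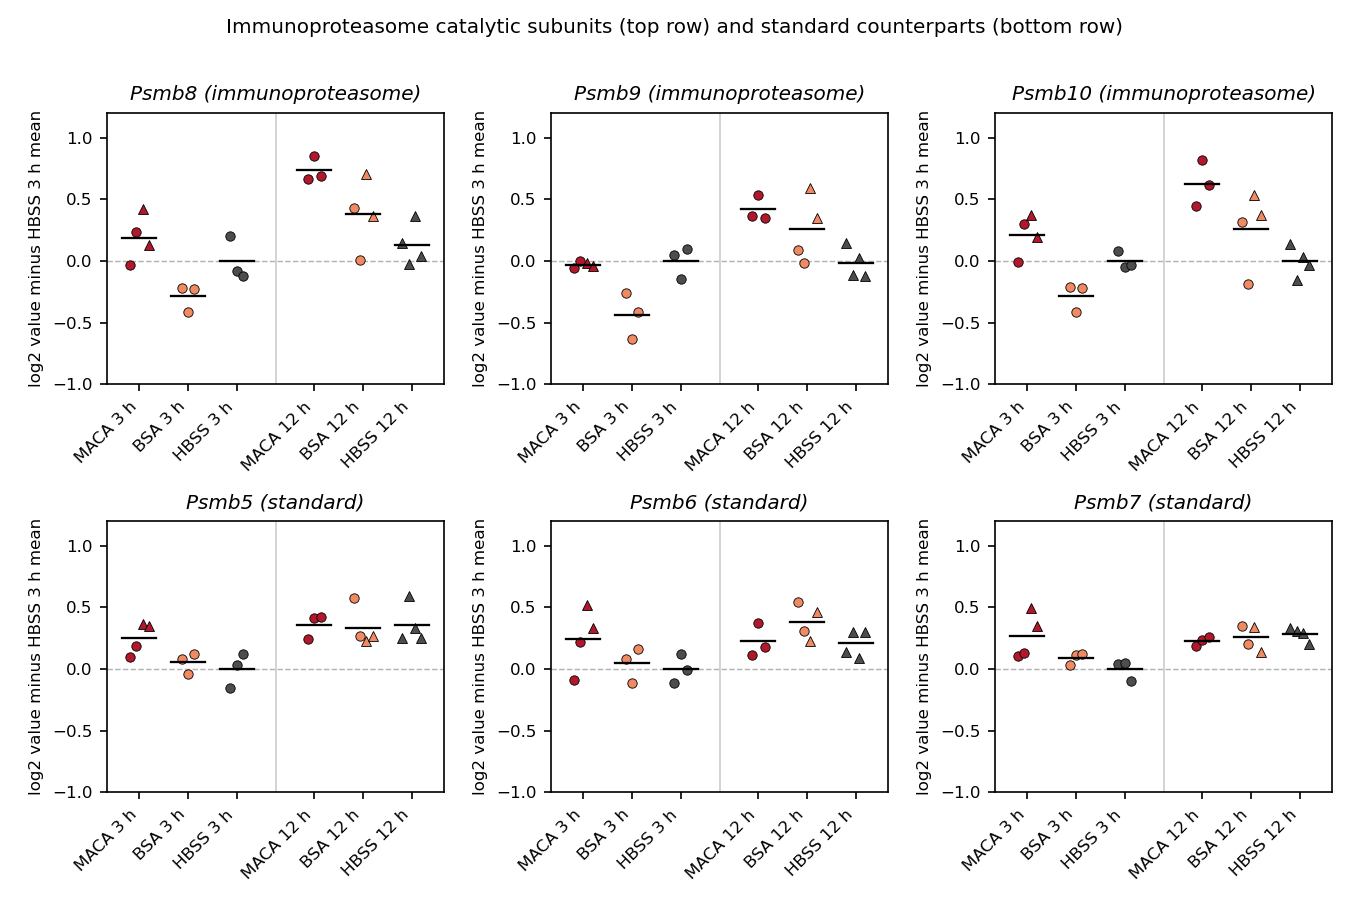
Log2(intensity + 16) of the 3 immunosubunits (top) and of the standard subunit each replaces (bottom) on each array, less the HBSS 3 h mean of the same gene, by group, with circles for the high technical set, triangles for the low set and a line for the group mean. In the top panels all 3 MACA 12 h arrays lie above all 4 HBSS 12 h arrays, and in the bottom panels these groups overlap.

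Psme1 (PA28 alpha) had 3665, 3998 and 4065 in MACA 12 h lungs, against 2536, 2095, 2623 and 2437 in HBSS 12 h lungs. The groups lay far apart relative to their spread, with a log2 fold of 0.69 ± 0.087 (SE, limma adjusted p = 0.000106). The probe set annotated Psme2b and Psme2 had 2726, 3559 and 3359 in MACA 12 h lungs, against 2183, 2174, 2139 and 2145 in HBSS 12 h lungs. The 4 HBSS values lay close together and below all MACA values. In a fit over all 22626 probe sets its log2 fold was 0.56 ± 0.084 (SE, limma adjusted p = 0.000465), where 8.45% of probe sets were called higher. Which of the PA28 beta copies gave that signal cannot be told apart.

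Tap1, a subunit of the peptide transporter, had the largest fold of the 9 genes. Its intensities were 551, 553 and 484 in MACA 12 h lungs, against 255, 187, 254 and 211 in HBSS 12 h lungs. The lowest MACA value was well above the highest HBSS value, and the difference was 2.26-fold (log2 fold 1.18 ± 0.14 (SE), limma adjusted p = 5.33e-05). The other 3 Tap1 probe sets were under the noise level on all 21 arrays and measured nothing. Tap2, the other subunit of the transporter, had 584, 918 and 832 in MACA 12 h lungs, against 519, 458, 492 and 640.0 in HBSS 12 h lungs. The groups overlapped through MACA 12 h replicate 1, and the log2 fold of 0.53 ± 0.19 (SE) did not pass (limma adjusted p = 0.0577).

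Tapbp (tapasin) had 4352, 4769.6 and 3665 in MACA 12 h lungs, against 2424, 2431, 2631 and 2615 in HBSS 12 h lungs. The groups did not overlap, and the log2 fold was 0.74 ± 0.14 (SE, limma adjusted p = 0.00203). A second Tapbp probe set gave a log2 fold of 0.71 ± 0.23 (SE) with a limma adjusted p of 0.0451 over all probe sets. Tapbp is the gene that differed between the technical sets, and with the set in the model its log2 fold was 0.36 and no longer passed (limma adjusted p = 0.0959). The other 5 genes that rose kept their calls in that fit, with log2 folds of 1.21 for Tap1, 0.89 for Psmb10, 0.85 for Psmb8, 0.65 for Psmb9 and 0.57 for Psme1, and Tap2 passed with 0.88 (limma adjusted p = 0.0185).

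B2m and Erap1 had the smallest folds. B2m had 8895, 8395 and 7424 in MACA 12 h lungs, against 6988, 7888, 7968 and 7275 in HBSS 12 h lungs. The groups overlapped, and the log2 fold was 0.13, with a 95% interval of -0.02 to 0.27 (limma adjusted p = 0.214). A second B2m probe set passed in none of the comparisons. Erap1 had 318, 309 and 297 in MACA 12 h lungs, against 199.98, 285, 249 and 259 in HBSS 12 h lungs. Its groups did not overlap, but the log2 fold of 0.30 did not pass (95% interval 0.04 to 0.57, limma adjusted p = 0.096).

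**Figure D3:**
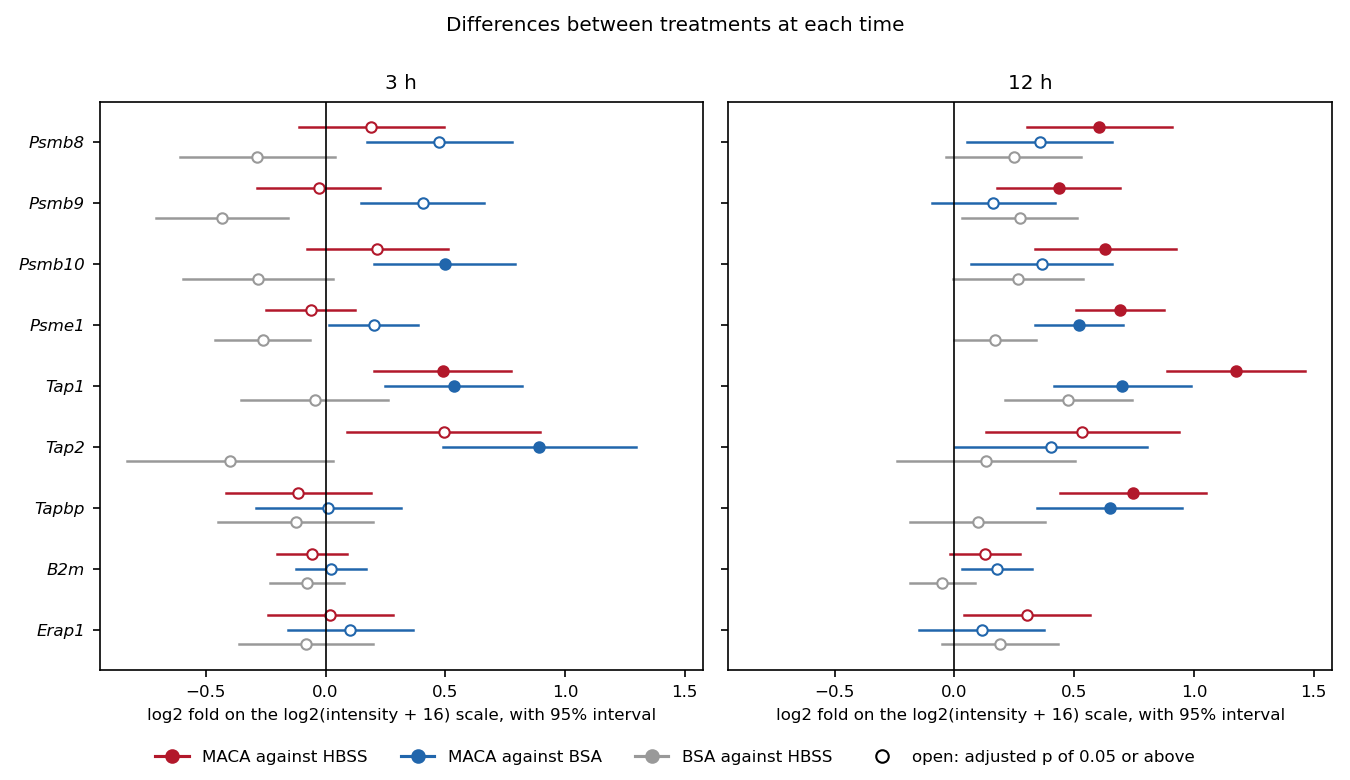
Log2 fold of each of the 9 genes with its 95% interval for MACA against HBSS, MACA against BSA and BSA against HBSS, at 3 h and at 12 h, with filled points for limma adjusted p under 0.05. Against HBSS, 6 genes are filled at 12 h and 1 at 3 h; no gene is filled for BSA against HBSS.

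At 3 h, Tap1 was the 1 gene of the 9 that passed between MACA and HBSS lungs, where 4.84% of all genes were called higher (600 higher and 406 lower, but 128 and 12 on unscaled arrays). The median log2 fold of the 9 genes was 0.02 against -0.02 over all genes. Tap1 had 325, 409.9, 347 and 376 in MACA 3 h lungs, against 278, 222 and 265 in HBSS 3 h lungs. All MACA values were above the HBSS values, with a log2 fold of 0.49 ± 0.14 (SE, limma adjusted p = 0.0354). That call was lost in 6 of 21 fits with 1 array left out, each without MACA 3 h replicate 2, 3 or 4 or without HBSS 3 h replicate 1, 2 or 3, and it was lost with the technical set in the model (adjusted p = 0.0645) and among high-set arrays alone (log2 fold 0.50, adjusted p = 0.125). Tap2 had 467, 666, 699.5 and 765 in MACA 3 h lungs, against 490.1, 449.6 and 413 in HBSS 3 h lungs. Its fold was as large as that of Tap1, 0.49 ± 0.19 (SE), but MACA 3 h replicate 1 fell among the HBSS values and it did not pass (limma adjusted p = 0.125). The other 7 genes had log2 folds of -0.11 to 0.21.

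The activator and tapasin differed in this respect from 3 h to 12 h. The change in the MACA to HBSS difference between times was tested for every gene, and 2.07% of all genes had a positive change past the threshold. Psme1 was one of them, with a change of 0.75 ± 0.12 (SE) on the log2 scale (limma adjusted p = 0.00648). It had 2845, 2854, 2469 and 2756 in MACA 3 h lungs, against 2872, 2694 and 2983 in HBSS 3 h lungs, which overlapped. Tapbp was the other, with a change of 0.86 ± 0.20 (SE, limma adjusted p = 0.0275). It had 3407, 3605, 2296 and 2659.8 in MACA 3 h lungs, against 3197, 3092 and 3270.4 in HBSS 3 h lungs. The lower pair of MACA values are the arrays of the low technical set, and neither change passed with the set in the model, where none of the 9 genes did. The share of all genes called in that fit is not given here. The Tapbp call was also lost in 6 of 21 fits with 1 array left out, with an adjusted p of up to 0.0833. The change was 0.69 for Tap1 (limma adjusted p = 0.0556) and 0.41 to 0.46 for the 3 immunosubunits, none past the threshold.

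Within MACA lungs, 12 h against 3 h, 5 of 9 genes rose, where 5.59% of all genes were called higher. Psmb8 had 1319, 1498 and 1341 at 12 h, against 807, 974, 1112 and 904 at 3 h. The times did not overlap (log2 fold 0.55, limma adjusted p = 0.021). Psmb9 had 1069, 1202 and 1057 at 12 h, against 791, 823, 814 and 803 at 3 h. The 3 h values lay within a narrow band below all 12 h values (log2 fold 0.45, limma adjusted p = 0.0254). Psme1, Tap1 and Tapbp rose by 0.52 each on the log2 scale, with limma adjusted p-values of 0.0013, 0.0198 and 0.0266. Leaving out MACA 12 h replicate 2 left 1 gene past the threshold, and leaving out single arrays of the MACA groups ended each of these calls except that of Psme1. Within the high technical set the log2 folds of Psmb8, Psmb9 and Psme1 were 0.63, 0.45 and 0.45 and passed, and those of Tap1 (0.52) and Tapbp (0.27) did not. The shares of all genes called in these leave-out and high-set fits are not given here. Within HBSS lungs none of the 9 genes passed between the times, where 7.88% of all genes were called in either direction. Psme1 and Tapbp had an unadjusted p under 0.05 in limma, and with the technical set in the model 0 of the 9 did. The share of all genes under that rule is not given here. All HBSS 3 h arrays were in the high set and all HBSS 12 h arrays in the low set, so this comparison cannot tell time from set.

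Against BSA, a protein given in the same amount, 3 of the 9 genes rose in MACA lungs at each time, and Tap1 rose at both. On unscaled arrays limma called none of the 9 genes at either time, with 2 at an unadjusted p under 0.05 at each. There 41 of all genes were higher and 3 lower at 3 h, against 434 and 304 after scaling, and 30 were higher and 66 lower at 12 h, against 504 and 692. With the arrays of the compared groups fitted alone limma called none of the 9 either, with 6 at an unadjusted p under 0.05 at 3 h and 3 at 12 h. Of all genes that fit called 113 higher and 19 lower at 3 h, and 0 at 12 h. The share of all genes at an unadjusted p under 0.05 is not given here for either fit. At 12 h the 3 genes that rose were Tap1, Psme1 and Tapbp, where 4.07% of all genes were called higher. Tap1 had 551, 553 and 484 in MACA 12 h lungs, against 305, 316, 379 and 283 in BSA 12 h lungs. The groups did not overlap (log2 fold 0.70 ± 0.14 (SE), limma adjusted p = 0.00478). Psme1 had 3665, 3998 and 4065 in MACA 12 h lungs, against 2897, 2748, 2932 and 2344 in BSA 12 h lungs. These too were apart (log2 fold 0.52 ± 0.087 (SE), limma adjusted p = 0.00202). Tapbp had 4352, 4769.6 and 3665 in MACA 12 h lungs, against 3481, 2509, 2413 and 2517 in BSA 12 h lungs. BSA 12 h replicate 1, the array apart on the first component, was by far the highest of its group, and the log2 fold was 0.65 ± 0.14 (SE, limma adjusted p = 0.00999). Within the high technical set, 3 MACA against 2 BSA arrays, the log2 folds were 0.74 for Tap1 (adjusted p = 0.0419), 0.47 for Psme1 (0.0105) and 0.52 for Tapbp (0.0828). The Tapbp call was lost without MACA 12 h replicate 2 (adjusted p = 0.0661). The probe set of Psme2b and Psme2 had 2595, 2226, 2237 and 2263 in BSA 12 h lungs, all below the MACA 12 h values above (log2 fold 0.46, limma adjusted p = 0.00483, where 3.18% of probe sets were called higher).

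The immunosubunits did not pass between MACA and BSA at 12 h. Psmb8 had 1119, 829.6, 1356 and 1069 in BSA 12 h lungs, Psmb9 had 880.2, 817, 1249 and 1057, and Psmb10 had 1564, 1102, 1825 and 1628. In each case the highest BSA array, replicate 3, overlapped the MACA values given above. Their log2 folds were 0.36, 0.16 and 0.36, with limma adjusted p-values of 0.132, 0.449 and 0.113. For all 3 subunits the low-set arrays of BSA 12 h averaged above the high-set pair. High minus low on the log2 scale was -0.25, -0.22 and -0.26 for Psmb8, Psmb9 and Psmb10 in the model that holds the set, none past the threshold.

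At 3 h, 3 of 9 genes rose in MACA over BSA lungs, where 3.5% of all genes were called higher, and the groups did not overlap in 5 genes, where 8.3% of all genes had MACA above BSA. Tap2 had 467, 666, 699.5 and 765 in MACA 3 h lungs, against 344, 273 and 407 in BSA 3 h lungs. The groups did not overlap (log2 fold 0.89 ± 0.19 (SE), limma adjusted p = 0.0125). Tap1 had 325, 409.9, 347 and 376 in MACA 3 h lungs, against 200.1, 297 and 249 in BSA 3 h lungs (log2 fold 0.53 ± 0.14 (SE), limma adjusted p = 0.0308). Both subunits of the transporter were thus above all BSA values. Psmb10 had 1245, 1546, 1622 and 1439 in MACA 3 h lungs, against 1081, 934 and 1073 in BSA 3 h lungs (log2 fold 0.50 ± 0.14 (SE), limma adjusted p = 0.0454). For Tap2 and Psmb10, BSA 3 h values lay below HBSS 3 h values without overlap (log2 folds of -0.40 and -0.28, not past the threshold). Between MACA and HBSS at 3 h these genes did not pass (limma adjusted p = 0.125 and 0.383). For Tap1, BSA and HBSS overlapped at 3 h (log2 fold -0.05). Psmb10 lost its call in 15 of 21 fits with 1 array left out, Tap1 in 5 and Tap2 in 1 (without BSA 3 h replicate 2, adjusted p = 0.0879). Within the high technical set, 2 MACA against 3 BSA arrays, none of the 3 passed, with log2 folds of 0.70 for Tap2, 0.54 for Tap1 and 0.43 for Psmb10. Psmb8 and Psmb9 had log2 folds of 0.48 and 0.40 and did not pass (limma adjusted p = 0.0609 and 0.0604). For the change of the MACA to BSA difference between times, none of the 9 genes passed, where 0.718% of all genes did in either direction. Of the 9, Psme1 and Tapbp had an unadjusted p under 0.05 in limma, a rule whose share over all genes is not given here.

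None of the 9 genes passed between BSA and HBSS at 3 h in limma (0.178% of all genes did in either direction). Of the 9, Psmb9 and Psme1 had an unadjusted p under 0.05, a rule whose share over all genes is not given here. BSA values were nevertheless below HBSS values without overlap in 7 of 9 genes, where 9.17% of all genes had this order, and the median log2 fold of the 9 genes was -0.26, against -0.01 over all genes. Psmb9 had 686, 527 and 617 in BSA 3 h lungs, against 853, 745 and 882 in HBSS 3 h lungs, with a log2 fold of -0.43 ± 0.13 (SE, limma adjusted p = 0.204). Psme1 had 2291, 2309 and 2517 in BSA 3 h lungs, against 2872, 2694 and 2983 in HBSS 3 h lungs, with a log2 fold of -0.26 (adjusted p = 0.3). All 6 of these arrays were in the high technical set. MACA and BSA are compared here with the same HBSS arrays and with each other, so the 3 comparisons at a time share arrays.

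At 12 h none of the 9 genes passed between BSA and HBSS in limma (1.35% of all genes did in either direction). Of the 9, Tap1 and Psmb9 had an unadjusted p under 0.05, a rule whose share over all genes is not given here. Tap1 came nearest, with 305, 316, 379 and 283 in BSA 12 h lungs, against 255, 187, 254 and 211 in HBSS 12 h lungs. The groups did not overlap, as in 4.37% of all genes, and the log2 fold was 0.47 ± 0.13 (SE, limma adjusted p = 0.0688). With the technical set in the model, Tap1 and Psmb9 passed (adjusted p = 0.0378 and 0.0407). Within BSA lungs, 12 h against 3 h, 4 of 9 genes rose, where 3.37% of all genes were called higher. They were Psmb9 (log2 fold 0.69, limma adjusted p = 0.00462), Psmb8 (0.66, 0.0152), Tap2 (0.74, 0.0353) and Psmb10 (0.54, 0.035), so all 3 immunosubunits were among them. The BSA 3 h values given above were the lowest group means of the series for these 4 genes. Leaving out BSA 3 h replicate 2 left 1 gene past the threshold. With the technical set in the model Psmb9 passed (log2 fold 0.58) and the other 3 did not, and within the high set none passed. The shares of all genes called in these alternative fits are not given here.

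The 9 genes were also described together by the mean of their standardized log2 values on each array. This joint level was 1.18 to 1.83 on MACA 12 h arrays, -0.31 to 0.64 on BSA 12 h arrays and -0.64 to -0.18 on HBSS 12 h arrays. At 3 h it was -0.10 to 0.48 on MACA arrays, -1.08 to -0.76 on BSA arrays and -0.37 to -0.03 on HBSS arrays. MACA 12 h lay highest and BSA 3 h lowest, each apart from all other groups. Across the 21 arrays, which share the group differences and the scaling, Psmb8 and Psmb10 were the most alike pair (Pearson r = 0.95) and Tap2 and B2m the least (r = -0.07). Psme1 correlated at 0.83 with Tap1 and at 0.78 with Tapbp.

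**Figure D4:**
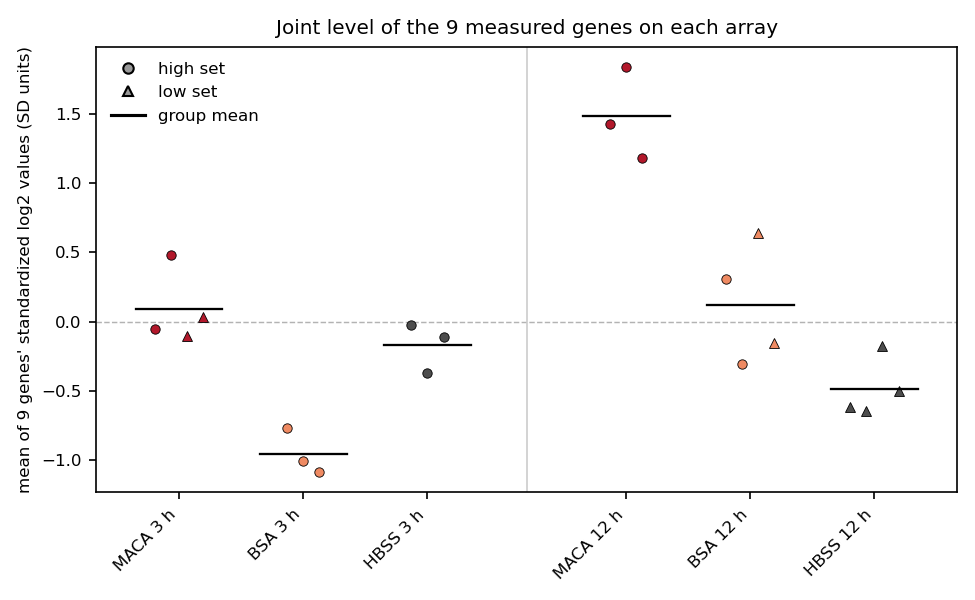
Mean of the standardized log2 values of the 9 genes on each of the 21 arrays, by group, with circles for the high technical set, triangles for the low set and a line for the group mean. MACA 12 h arrays lie at 1.18 to 1.83, above all others, and BSA 3 h arrays at -1.08 to -0.76, below all others.

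Of 9296 other genes above the noise level in at least 1 group, the 8 whose log2 values correlated most with the joint level over the 21 arrays were Oas1a (r = 0.94), Cyba (0.92), Tubb5 (0.92), Tmem106a (0.92), Dok2 (0.91), Irf7 (0.91), Itgb2 (0.90) and Mcm5 (0.90). Oas1a makes the oligoadenylates that activate RNase L, and Irf7 is a transcription factor of the type I interferon response. Cyba is a subunit of the phagocyte NADPH oxidase, Itgb2 the beta chain of leukocyte integrins and Dok2 a docking protein of haematopoietic cells. Tubb5 is a tubulin and Mcm5 a helicase subunit of DNA replication. Their likeness to the joint level is a description over these arrays.

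The constitutive parts of the proteasome were read from lists of their own, and their difference from the immunosubunits was not tested. These lists and those below were read from the fit without the technical set. At 12 h the set runs with MACA against HBSS, and its part in the list values was not tested. Of all genes, 4.84% were called higher and 3.28% lower at 3 h, and 10.2% and 10.1% at 12 h. Of the 11 other subunits of the 20S core, none passed for MACA against HBSS at 3 h, and at 12 h 1 fell, Psma5 (log2 fold -0.42, limma adjusted p = 0.0253). Of 20 subunits of the 19S regulator, which recognises ubiquitinated proteins, 1 rose at 3 h, Psmd3 (log2 fold 0.45, adjusted p = 0.0233), and none passed at 12 h. Of 7 other activators and assembly factors, Psme3, the nuclear activator PA28 gamma, rose at 3 h (log2 fold 0.52, adjusted p = 0.0269) and none passed at 12 h. The assembly factor Pomp, which immunoproteasomes also need, had log2 folds of 0.13 at 3 h and 0.11 at 12 h, neither past the threshold.

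Downstream of the proteasome, Lap3, a cytosolic aminopeptidase, rose at both times (log2 fold 0.42 at 3 h, adjusted p = 0.026, and 0.55 at 12 h, adjusted p = 0.00234) and was the only 1 of 6 cytosolic peptidases to pass at either. Of 5 loading chaperones, Tapbpl, the tapasin relative TAPBPR that edits peptides on class I molecules, rose at both times (log2 fold 0.58, adjusted p = 0.0145, and 0.45, adjusted p = 0.026). Calr and Pdia3, which hold the class I heavy chain in the loading complex, did not pass at either time (log2 folds of 0.35 and 0.01 at 3 h and of 0.06 and 0.12 at 12 h), nor did the chaperone Hspa5. Of 10 class I heavy chains and relatives, 2 rose and 3 fell at 12 h, and 2 fell at 3 h. H2-K1, a classical heavy chain, had 6642 to 6952 in MACA 12 h lungs, against 4025 to 5026 in HBSS 12 h lungs (log2 fold 0.56, adjusted p = 0.000555). H2-D1, also classical, had a log2 fold of 0.04 at 12 h and did not pass. Probe sets of these near-identical genes can share signal, so their values are uncertain. Mr1, which presents vitamin B metabolites to MAIT cells, fell at both times. It had 166 to 180.2 in MACA 12 h lungs, against 308 to 331 in HBSS 12 h lungs (log2 fold -0.83, adjusted p = 8.94e-06), and a log2 fold of -0.39 at 3 h (adjusted p = 0.00246). Fcgrt, the neonatal Fc receptor, which also pairs with B2m, fell at 12 h (log2 fold -0.54, adjusted p = 0.000887). All these 12 h calls compare high-set MACA arrays with low-set HBSS arrays, in the fit without the set.

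Of 16 genes of interferon signalling, 5 rose at 3 h and 9 at 12 h, where 4.84% and 10.2% of all genes were called higher. The other 11 and 7 did not pass. The part of the technical set in these 12 h values was not tested. Against BSA, 5 of the 16 rose at 3 h and 3 at 12 h, where 3.5% and 4.07% of all genes were called higher. Irf1, a transcription factor that acts on immunosubunit and Tap1 promoters, had 2638 to 4056 in MACA 3 h lungs, against 1364 to 1564 in HBSS 3 h lungs (log2 fold 1.22, adjusted p = 4.73e-05). At 12 h it had 1614 to 2062 in MACA lungs, against 1026 to 1214 in HBSS lungs (log2 fold 0.70, adjusted p = 0.00176). The change of the Irf1 difference between times, -0.52 on the log2 scale, did not pass (adjusted p = 0.127). Irf7 rose at both times too, with a log2 fold of 0.70 at 3 h (adjusted p = 0.00953) and 1.24 at 12 h (adjusted p = 7.74e-05), and its change did not pass either (adjusted p = 0.158). Stat2 and Irf9, partners in the type I interferon transcription complex, rose at 12 h (log2 fold 0.75, adjusted p = 0.00883, and 0.72, adjusted p = 0.0079), as did Ciita, the activator of MHC class II genes (0.50, adjusted p = 0.0126). Ifngr2 rose at 3 h (log2 fold 0.80, adjusted p = 0.0212). The brightest genes of the list that did not pass were Jak1 at 3 h (log2 fold 0.11, adjusted p = 0.621) and Ifngr1 at 12 h (0.17, adjusted p = 0.514). Ifng, which encodes interferon gamma, was under the noise level in all 6 groups and gave no level. Nlrc5, the class I transactivator, had no probe set of its own here.

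Leukocytes carry immunoproteasomes, and their markers were read in the same fit. At 12 h, where 10.2% of all genes were called higher, MACA lungs rose over HBSS lungs in 5 of 10 neutrophil markers, 6 of 12 macrophage and monocyte markers, 3 of 9 dendritic cell markers, 5 of 7 B cell markers and 2 of 14 T cell and NK cell markers. Against BSA at 12 h, 4.07% of all genes were called higher. There 2 neutrophil, 4 macrophage and monocyte, 1 dendritic cell, 1 B cell and 0 T cell and NK cell markers rose. The summed intensity of the neutrophil markers was 4481 to 7983 in MACA 12 h lungs, against 1864 to 3121 in HBSS 12 h lungs. That of the macrophage and monocyte markers was 18712 to 20263 in MACA 12 h lungs, against 16117 to 17351 in HBSS 12 h lungs. B cell markers summed to 1503 to 2579.9 and T cell and NK cell markers to 2326 to 3725 in MACA 12 h lungs, against 654 to 1337 and 1158 to 2405 in HBSS 12 h lungs. In BSA 12 h lungs neutrophil markers summed to 3070 to 7043 and macrophage and monocyte markers to 14761 to 18390. B cell markers there summed to 1384 to 1976 and T cell and NK cell markers to 2193 to 3048. At 3 h, where 1 of the 9 genes and 4.84% of all genes rose, neutrophil markers summed to 7730.3 to 11894 in MACA lungs, against 1139 to 3536 in HBSS lungs, and 6 of 10 rose. In the other lists 2 of 12 macrophage and monocyte markers, 2 of 9 dendritic cell markers, 1 of 7 B cell markers and 0 of 14 T cell and NK cell markers rose at 3 h. The macrophage and monocyte markers then summed to 19714 to 22199 in MACA lungs, against 14790 to 18004 in HBSS lungs, and their median log2 fold was 0.01 at 3 h and 0.95 at 12 h. B cell markers summed to 1103 to 1409.9 in MACA 3 h lungs, against 584 to 824 in HBSS 3 h lungs. T cell and NK cell markers summed to 2124 to 3116 in MACA 3 h lungs, against 1154 to 2132 in HBSS 3 h lungs. Dendritic cell markers summed to 2302 to 3229 in MACA 3 h lungs, against 769.6 to 1185 in HBSS 3 h lungs. At 12 h the dendritic cell sums were 1179.6 to 1222 in MACA lungs, against 799.5 to 951.9 in HBSS lungs. Among defining markers, Pax5, Cd4, Klrk1 and Xcr1 were under the noise level on all 21 arrays. Lung epithelial markers were bright in all groups, with sums of 65657 to 79104, and 3 of 10 rose at 12 h. These were the water channel gene Aqp5 by 0.60 on the log2 scale (limma adjusted p = 0.00457) and the surfactant protein genes Sftpd by 0.41 (adjusted p = 0.00253) and Sftpc by 0.19 (adjusted p = 0.00985). The part of these markers in the values of the 9 genes was not tested, nor was the part of the technical set in the marker values.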

How the data were processed

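Total RNA from snap-frozen whole left lungs was isolated with a column kit and hybridised as biotin-labelled cRNA, per the labels' protocols. Each array was deposited as linear-scale intensities of 22690 probe sets. How the authors scanned, summarised or scaled them is not given in the sources used here. From 9.37% to 11.1% of the values of an array were below 0, so some background had been subtracted, and array medians ran from 93.5 to 288, a ratio of 3.08, so arrays had not been scaled. No 2 arrays were identical (0 pairs), and correlations within groups had a median of 0.987. For arrays, their number limits the precision.

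After 64 control probe sets were left out, intensities were quantile normalized, negative ones became 0, and log2(value + 16) was used, a scale that understates changes of dim genes. Noise was set at 40.9, the 95th percentile of the absolute negative values. Of 22626 probe sets, 20380 had 1 symbol in the platform annotation, 691 several and 1555 none; the brightest probe set of each gene was used (12393 genes). limma 3.58.1 (R 4.3.3) fitted 6 group means to 21 arrays (15 residual degrees of freedom), and 11 comparisons were adjusted by Benjamini-Hochberg over all genes within each. Exact permutation tests went through all splits of the arrays in R, and figures used matplotlib 3.10.9. The fit was tested on simulated data with independent noise, for MACA 12 h against HBSS 12 h. It recovered 52% of changes of 0.5 on the log2 scale and 95% of changes of 1, with 3 false calls. A difference of 0.5 that did not pass can therefore be a missed change. The technical set was taken from the ratio of 5' and 3' probe sets of 1 control.

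The 10 genes, the other lists, the scaling and the alternatives were chosen with earlier results of these data known. Of each other list, the rule took up to 3 genes with the largest fold past the threshold for MACA against HBSS at each time and the brightest gene that did not pass, together with Psmb5, Psmb6, Psmb7, Psme3, Calr, Pdia3, H2-K1, H2-D1, Irf1, Nlrc5, Ifng and Sftpc; not every gene the rule took is reported here. Same-numbered samples deviated together (correlation over 0.1 in every pair) only for BSA against HBSS at 12 h. A pairing of those samples would rest on the data alone, since the labels state none. Ciita, Pax5, Cd4, Klrk1 and Xcr1 were named after their values were seen. Upstream sequences are from RefSeq (GRCm38.p6). Alternatives were no scaling, median scaling, pseudocounts of 4 and 64, the mean of a gene's probe sets, dim genes left out, a variance trend, the compared groups alone, the technical set as a term or within each set, the replicate number as a block, and each array left out.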

Additional observations from a re-analysis of the deposited data

Results flagged for a closer look

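In BSA 12 h lungs, replicate 1 had a Tapbp intensity of 3481, against 2413 to 2517 on the other 3 arrays, so it lay far from the rest of its group. The gap was 0.886 of the whole range, and this was 1 of 27 groups of 4 arrays looked at, where chance gives about 1 in 20. A single flag among 27 groups is no more than chance gives. The same array stood apart on the first principal component. Without this array, the Tapbp fold of MACA against BSA at 12 h was 0.77 (limma adjusted p = 0.00169), against 0.65 with it (adjusted p = 0.00999). The change of that difference from 3 h to 12 h was 0.76 without it and passed (limma adjusted p = 0.0458), against 0.64 with it (adjusted p = 0.132). The array was picked from these same values, so the fits without it are a description only.

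The difference between MACA and HBSS lungs differed between 12 h and 3 h for Psme1, by 0.75 on the log2 scale (limma adjusted p = 0.00648), and for Tapbp, by 0.86 (adjusted p = 0.0275). For the second Tapbp probe set the same change was 0.48 and did not pass over all probe sets (adjusted p = 0.477). All MACA 12 h arrays and all HBSS 3 h arrays were in the high technical set, all HBSS 12 h arrays in the low set, and MACA 3 h was split, so the set runs partly with this change.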

How the results depend on the processing

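Except for the count under median scaling, the counts in this section stand without the share of all genes called in the same fit. On their own they cannot tell a change in the 9 genes from a change in all calls. The arrays were deposited unscaled, so the scaling matters most. Without scaling, the median log2 fold of all genes was -0.57 for MACA against HBSS at 12 h and that of the 9 genes -0.07, so the 9 genes remained above the median of all genes. In these unscaled values, 1 of the 9 genes passed for MACA against HBSS at 12 h, and it was lower (B2m, -0.43). Psmb8 (-0.0715), Psmb9 (-0.25) and Psmb10 (-0.0484) then had negative folds. For HBSS at 12 h against 3 h, where the median of all genes was 0.72, 8 genes passed as higher, and Psmb9 (0.81), Psmb10 (0.81), Psme1 (0.53), Tap1 (0.65), B2m (0.56) and Erap1 (0.76) had turned positive. None (0) passed for MACA against HBSS or BSA at 3 h, MACA against BSA at 12 h, 12 h against 3 h of MACA or BSA, or the change of MACA against HBSS, and 1, lower, passed for BSA against HBSS at 12 h. Median scaling gave 1, lower, for HBSS at 12 h against 3 h, and moved the split of all calls from 504 higher and 473 lower to 335 and 534 there.

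With the mean of all probe sets, MACA against HBSS at 3 h had 0 genes, MACA at 12 h against 3 h had 3 and the change of MACA against HBSS had 1; Tap1 at 3 h turned to -0.00726, since 3 of its probe sets are under the noise. With the compared groups fitted alone, fewer arrays estimated the spread, and 0 genes passed for MACA against HBSS or BSA at 3 h, MACA against BSA at 12 h and BSA at 12 h against 3 h, while 3 passed for MACA at 12 h against 3 h, 1 (lower) for HBSS at 12 h against 3 h and 4 for the change of MACA against HBSS. With the technical set as a term, 0 passed for MACA against HBSS at 3 h and for the change, 1 for MACA against BSA at 3 h, 1 for BSA at 12 h against 3 h and 2 for BSA against HBSS at 12 h. Within the high set, 0 passed for MACA against HBSS or BSA at 3 h and BSA at 12 h against 3 h, and 3 for MACA at 12 h against 3 h. The cause of these moves was not tested.

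The correlation of same-numbered deviations was 0.14 to 0.34 for BSA against HBSS at 12 h. The labels state no pairing, and differently numbered samples were not compared, so whether the numbers pair these samples is not known. The replicate block joined equal numbers across all 6 groups, and with it 0 of the 9 genes passed for BSA against HBSS at 12 h too. In the other comparisons at least 1 pair was under 0.1 (0.04 to 0.07 for MACA against HBSS at 3 h, -0.11 to 0.14 at 12 h). With the block, 0 genes passed for MACA against HBSS at 3 h (Tap1, adjusted p = 0.0505) and 1 for the change of MACA against HBSS (Tapbp did not, 0.0555); Psmb10 for MACA against BSA at 3 h did not pass (0.0653), and Tap2 for MACA against HBSS at 12 h did (0.0271). The block changed no other call of the 9 genes. Leaving out 1 array at a time gave 0 to 2 genes for MACA against HBSS at 3 h and 5 to 7 at 12 h, 1 to 5 for MACA against BSA at 3 h and 2 to 4 at 12 h, 0 to 1 for BSA against HBSS at 12 h, 1 to 6 for MACA and 1 to 4 for BSA at 12 h against 3 h, 1 to 3 for the change of MACA against HBSS and 0 to 1 for that against BSA. Without BSA 12 h replicate 1, that last count was 1. A pseudocount of 4 changed the call of none of 99 gene values, and a pseudocount of 64 that of 1. Sign changes of values not past the threshold in either setting were not counted as turned, 28 of them without scaling.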
